A study of Mus musculus with 12 samples.

Results

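The proteasome genes of the mouse were examined for promoter peaks of H3K36ac, acetylation of lysine 36 on histone H3, in neonatal spermatogonia. Members were the protein-coding RefSeq genes of mm10 (GRCm38.p6) whose symbol begins with *Psma* to *Psmg* followed by a number, which gave 51 genes of 21468 protein-coding genes with a known strand. Of these, 49 encode proteasome subunits, activators, an inhibitor or assembly factors. The other 2, *Psmc3ip* and *Psme3ip1*, match by symbol and encode no proteasome subunit. ChIP-seq had been carried out on 3 WT and 3 *Sirt7*-/- (S7KO) samples of testis cells enriched for spermatogonia by differential plating, 50000 cells each, from males of the same inbred strain at postnatal day (Pnd) 5. No treatment was named, and each sample came from a different mouse. Samples carried the replicate numbers 2, 3 and 4 in both genotypes, and each had an input library of its own, against which its peaks had been called. A member was called in a sample when a peak of that sample lay, wholly or in part, within 3 kb of the gene start.

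The proteasome degrades proteins that carry ubiquitin chains. Its core particle is a barrel of stacked rings, with alpha subunits forming the outer rings that gate the entry and beta subunits forming the inner rings that hold the proteolytic sites. The regulatory particle caps the barrel, recognises and deubiquitinates substrates, and unfolds them with a ring of ATPases. Testis has proteasome forms of its own, in which the alpha subunit PSMA8 and the activator PSME4 take part in spermatocytes and spermatids, and other tissues carry immune or thymus forms with exchanged beta subunits. H3K36ac is found mainly at active promoters, and SIRT7 is a deacetylase that acts on this residue.

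The number of peaks in a list was 2840, 2045 and 2591 in S7KO replicates 2, 3 and 4 and 906, 64 and 294 in the WT replicates of the same numbers. WT replicate 3 therefore stood apart, and no member was called in it. The lists hold positions, widths and strengths over input, but no coverage. A promoter without a peak may still carry the mark, the number of reads that entered each call was not analysed here, and list length and genotype cannot be told apart. In a bulk sample, fewer cells that carry the mark and less of the mark per cell cannot be told apart either. Of 10 marker genes of spermatogonia, among them *Zbtb16*, 5 were called in at least 1 S7KO sample and 0 in WT, and of 10 markers of testis somatic cells only *Sox9* was called, in S7KO replicate 3. No marker of either list had a peak in WT. Of all protein-coding starts, 19.3% were called in at least 1 S7KO and 5.12% in at least 1 WT sample, so lists of this length were too short to check the labelled cell type in WT.

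Members were called more often in each S7KO sample than in any WT sample. In the S7KO samples, 14, 7 and 11 of 51 members had a promoter peak in replicates 2, 3 and 4, which is 27.5%, 13.7% and 21.6%. In the WT samples, the counts were 6, 0 and 1, which is 11.8%, 0% and 1.96%. All S7KO counts lay above all WT counts, although the lowest S7KO count, 7, was close to the highest WT count, 6. The same shares over all protein-coding starts were 13.2%, 9.73% and 11.7% in S7KO and 4.38%, 0.317% and 1.35% in WT, so that the background differed between genotypes in the same direction. Relative to that background, members were called 2.08, 1.41 and 1.84 times as often in S7KO replicates 2, 3 and 4. In WT, the ratio was 2.69 in replicate 2, 0 in replicate 3 and 1.45 in replicate 4. The members' share exceeded the background in 5 of 6 samples, and the ratios of the genotypes overlapped. The mean was 10.7 ± 3.51 members in S7KO and 2.33 ± 3.21 in WT (SD, n = 3 each). WT replicate 2 decided the WT value, with a mean of 0.5 members without it and of 3.5 members without WT replicate 3.

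**Figure D1:**
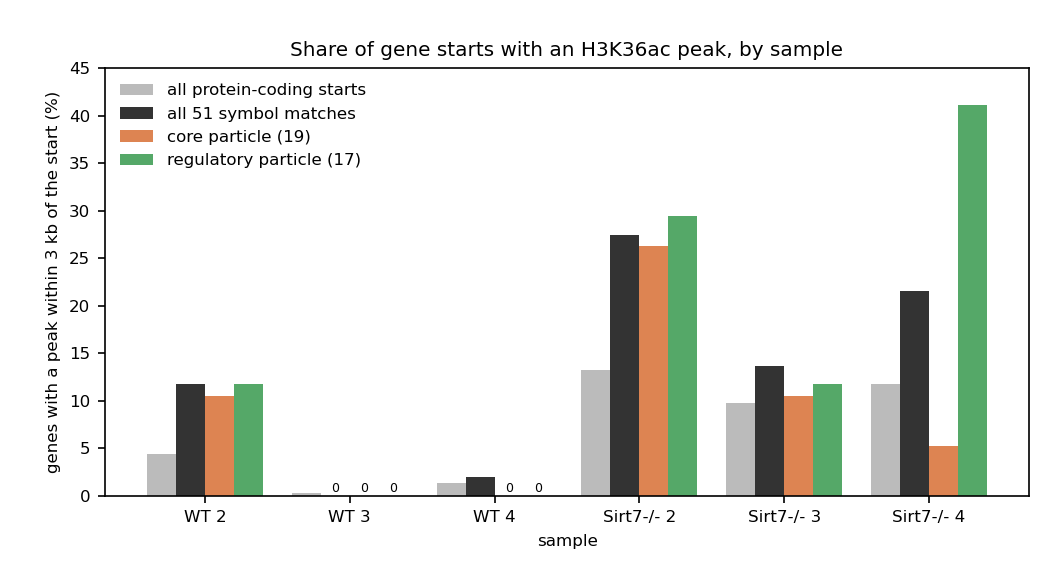
Share of genes with an H3K36ac peak within 3 kb of the start (%, y axis, from 0) in each of the 6 samples (x axis), for the proteasome genes and for all protein-coding starts. The members lie above all starts in every sample but WT replicate 3, in which 0 of 51 members were called, and both shares are higher in the S7KO samples.

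Few members were among the 64 best peaks of any sample. Because 1 called member is already 1.96% of the 51, any sample that held a member exceeded the share of all starts by construction. With only the 64 best peaks of each list by −log10 q, the length of the shortest, the members called were 3, 1 and 1 in S7KO replicates 2, 3 and 4 and 2, 0 and 1 in the WT replicates, a difference in means of 0.667 in place of 8.33. Lists of equal length hold the calls over all starts nearly equal, so a smaller difference follows from this setting whatever its source. Between 0.284% and 0.349% of all starts were called with these peaks, against 1.96% to 5.88% of members in the 5 samples that had any. The members were *Psmg2*, *Psmd1*, *Psmb7* and *Psmd11*, and *Psmg2* and *Psmd1* were among them in both genotypes. With only peaks of at least 500 bp, the difference in means was 3 members.

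Calls at a given member varied between samples of the same genotype. At least 1 S7KO sample had a peak at 21 members (41.2%), against 19.3% of all starts. At least 2 S7KO samples had one at 9 members (17.6%), against 10.3%. All 3 S7KO samples had one at 2 members (3.92%), *Psmd11* and *Psmg2*, against 5.09%. The members' share was thus above that of all starts for calls in at least 1 or at least 2 S7KO samples. It was not for calls shared by all 3, but that count of 2 members is too small to set apart from the background. At least 1 WT sample had a peak at 6 members (11.8%), against 5.12% of all starts, and this number was 1 without WT replicate 2. A peak in all 3 S7KO and no WT samples was present at 1 member (1.96%), *Psmd11*, against 2.45% of all starts. This count was 4 without S7KO replicate 4 (*Psmd7*, *Psmd11*, *Psme3* and *Psme4*) and 2 without S7KO replicate 3 (*Psmd11* and *Psmd12*). A peak in WT only was present at 1 member, *Psmd14*, against 0.475%. Of the 22 members called anywhere, 12 were called in exactly 1 sample (54.5%), compared with 43.7% of all starts called anywhere, and 0 members were called in all 6.

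**Figure D2:**
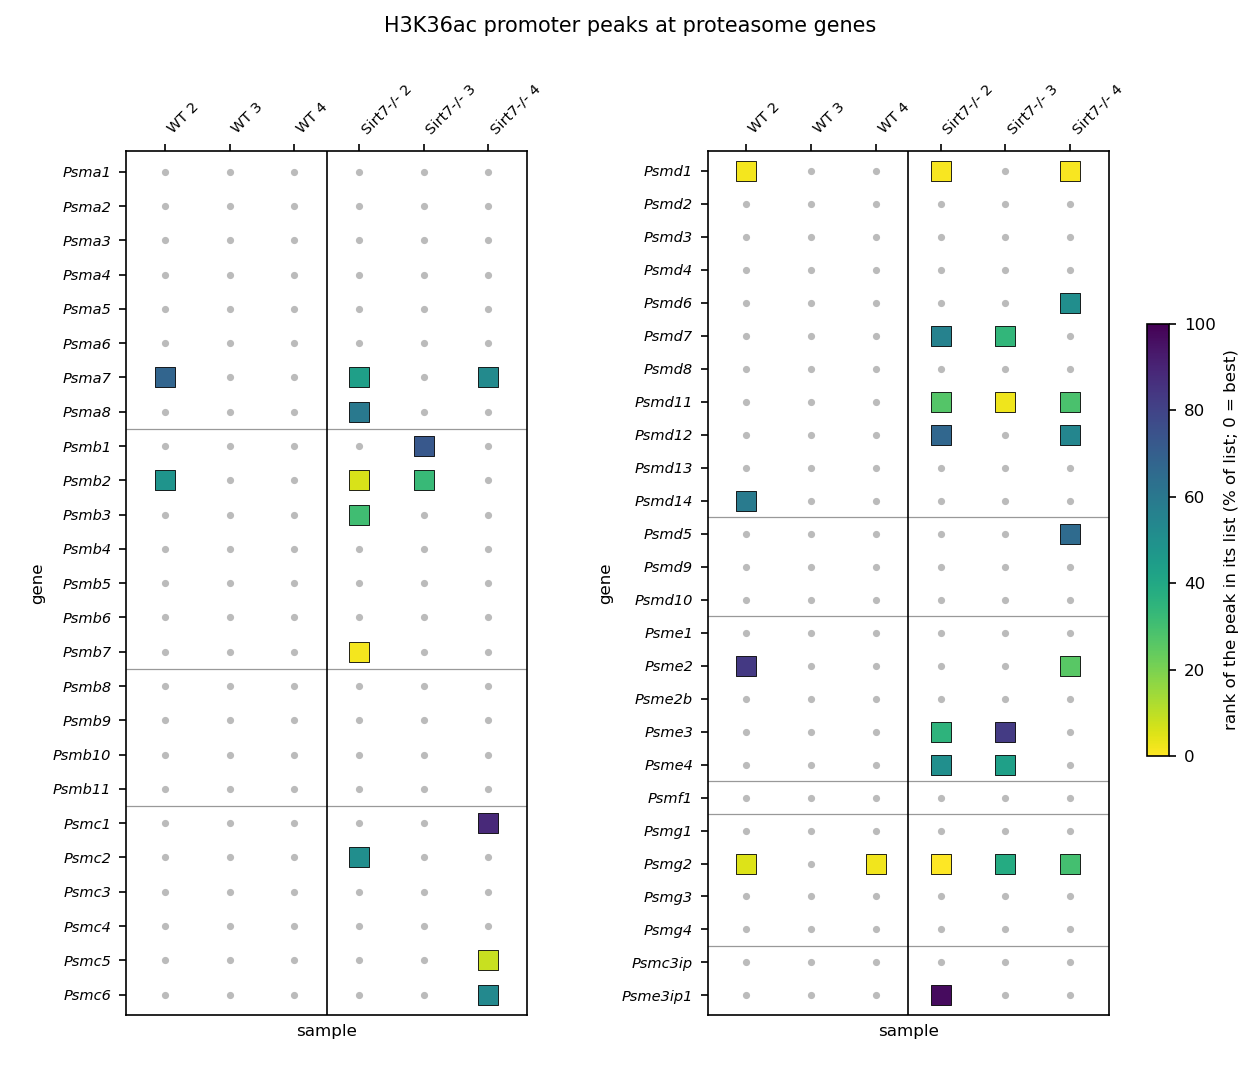
Promoter peaks of H3K36ac at each of the 51 members (y axis, grouped by role) in the 6 samples (x axis), with the colour of a filled cell giving the rank of the peak within its own list as a percentage of that list, so that a low percentage is a strong peak. *Psmg2* is filled in 5 samples, *Psmd11* in the 3 S7KO samples only, and 29 members are empty throughout.

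The regulatory particle held more called members than the core particle in S7KO, but the samples disagreed. Of the 17 subunits of the regulatory particle, 5, 2 and 7 were called in S7KO replicates 2, 3 and 4 and 2, 0 and 0 in the WT replicates. Of the 19 core subunits, 5, 2 and 1 were called in S7KO and 2, 0 and 0 in WT. The mean share in S7KO was 27.5% ± 14.8 for the regulatory and 14.04% ± 10.96 for the core particle (SD, n = 3), and the replicates of the particles overlapped, at 11.8% to 41.2% and 5.26% to 26.3%. The regulatory and core shares were 26.5% and 7.89% without S7KO replicate 2, 35.3% and 15.8% without replicate 3 and 20.6% and 18.4% without replicate 4. In WT, the shares were 3.92% ± 6.79 and 3.51% ± 6.08 (SD, n = 3). At least 1 S7KO sample had a peak at 9 of 17 regulatory (52.9%) and 6 of 19 core subunits (31.6%), against 19.3% of all starts. Without the tissue-specific subunits, the core count was 5 of 14 (35.7%). The mean share of all starts per sample was 11.6% in S7KO and 2.02% in WT.

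Of the alpha subunits, 2 of 8 were called, against 4238 of all 21468 protein-coding starts called in any sample. *Psma7*, whose product belongs to the outer ring, had the widest member peak, with 992 bp in S7KO replicate 2, 1145 bp in S7KO replicate 4 and 845 bp in WT replicate 2. The peak covered the gene start in all 3 samples and was of middling strength in each list, at ranks 1251 of 2840, 1357 of 2591 and 614 of 906. The start of *Ss18l1*, on the opposite strand, lies within the same peaks, and in WT replicate 2 the midpoint was closer to *Ss18l1*. *Psma8*, the testis-specific counterpart of *Psma7*, was called in S7KO replicate 2 only, by a peak of 383 bp that covered the start and ranked 1692 of 2840. *Psma1* to *Psma6* had no peak within 3 kb of the start used. For *Psma3* this depended on the start: RefSeq has a second start 5340 bp downstream, and peaks of 623 bp in S7KO replicate 2, 435 bp in S7KO replicate 3 and 280 bp in WT replicate 2 began 104, 151 and 120 bp after it. Counting every RefSeq transcript start in this way added *Psma3* as a further member called in both genotypes and brought the totals to 22 members in S7KO and 7 in WT.

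Of the 7 beta subunits found in most tissues, 4 were called, against 4238 of all 21468 starts called in any sample. *Psmb2*, a structural subunit of the inner ring, had peaks of 322 bp in S7KO replicate 2, 349 bp in S7KO replicate 3 and 279 bp in WT replicate 2, which began 84, 77 and 78 bp downstream of the start. The 3 peaks thus began within a few bases of each other in both genotypes, and ranked 175 of 2840, 669 of 2045 and 438 of 906. *Psmb7*, which carries a trypsin-like site, was called in S7KO replicate 2 alone, yet at rank 51 of 2840. *Psmb3* was called in the same sample, and 2 further peaks, in S7KO replicates 2 and 4, ended 3933 and 4176 bp from its start, next to *Pcgf2* and outside the window. *Psmb1* was called in S7KO replicate 3 by a peak 1718 bp upstream, the most distant of all member peaks, and the nearest start to that peak was *Tbp*, the gene of the TATA-binding protein. *Psmb4*, *Psmb5* and *Psmb6* had no peak, and *Psmb5* and *Psmb6* carry the other catalytic sites. None of the immunoproteasome subunits *Psmb8*, *Psmb9* and *Psmb10* was called in any sample, nor was *Psmb11*, the subunit of the thymus form.

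Of the 6 ATPases, 4 were called, each in a single S7KO sample and none in WT. Of all starts, 19.3% were called in at least 1 S7KO sample and 5.12% in at least 1 WT sample. No WT call among 6 genes is near that WT share. *Psmc1*, *Psmc5* and *Psmc6* were called in S7KO replicate 4, at ranks 2291, 218 and 1371 of 2591, and *Psmc2* in S7KO replicate 2, at rank 1446 of 2840. Only *Psmc1* had a peak that covered its start and no other. The *Psmc5* peak of 903 bp also covered the start of *Ftsj3*, a gene of ribosomal RNA processing, and its midpoint was nearer to that gene. The *Psmc2* peak ended 224 bp upstream of the start, and its midpoint was nearer to *Dnajc2*. *Psmc3* and *Psmc4* were not called.

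Among the 11 non-ATPase subunits, 6 were called, against 4238 of all 21468 starts called in any sample. These 6 included the best-ranked peaks of the particle. *Psmd1*, the largest scaffold subunit of the base, was called in S7KO replicates 2 and 4 and in WT replicate 2. Its peaks were among the best of every list that held one, at ranks 28 of 2840, 23 of 2591 and 16 of 906, with fold over input of 6.53, 6.51 and 6.35. The widths were 505, 776 and 241 bp, and all 3 peaks covered the start. *Psmd11*, a lid subunit, was the only member with a peak in every S7KO sample and none in WT (p = 0.1 by Fisher's exact test, two-sided, which cannot be lower with 3 samples against 3). Its peaks of 479, 385 and 576 bp began 66, 98 and 106 bp downstream of the start and ranked 765 of 2840, 48 of 2045 and 740 of 2591. They fell on the same stretch in all 3 samples, with a strong call in replicate 3 only. *Psmd7* and *Psmd12*, which encode lid subunits, were called in 2 S7KO samples each and in no WT sample (Fisher's exact test, two-sided, p = 0.4 each). *Psmd6* was called in S7KO replicate 4. *Psmd14*, the deubiquitinase of the lid, was the only member with a peak in WT and not in S7KO, by a call of 239 bp in WT replicate 2 at rank 532 of 906 (Fisher's exact test, two-sided, p = 1). *Psmd2*, *Psmd3*, *Psmd4*, *Psmd8* and *Psmd13* were not called.

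The 250 bases before the start are shown for 4 called members. These were taken by rule from members called in WT, or in every S7KO and no WT sample. Members called in most samples came first, then those of better mean rank. *Psmg2* and *Psmb2* also came under the rule but had no promoter sequence in the reference used. The peaks of the 4 lay differently against these bases. The peaks of *Psmd1* covered 250, 250 and 200 of these bases, those of *Psma7* all 250 in each of 3 samples, those of *Psme2* 123 in each of 2 samples, and those of *Psmd11* none in any of 3 samples. The sequences are those of RefSeq on GRCm38.p6, 5′ to 3′ on the strand of the gene, from chr1:86064369-86064618 (plus strand) for *Psmd1*, chr11:80428365-80428614 (plus strand) for *Psmd11*, chr2:180042465-180042714 (minus strand) for *Psma7* and chr14:55591102-55591351 (minus strand) for *Psme2*. Capitals mark matches on either strand to any of 6 motifs, TATAAA (the TATA box), CCAAT (bound by NF-Y), GGGCGG (bound by SP factors), CACGTG (an E-box), TGACGTCA (the cyclic AMP response element) and TGACNNNGC (the antioxidant response element), and those that overlap run together.
Psmd1: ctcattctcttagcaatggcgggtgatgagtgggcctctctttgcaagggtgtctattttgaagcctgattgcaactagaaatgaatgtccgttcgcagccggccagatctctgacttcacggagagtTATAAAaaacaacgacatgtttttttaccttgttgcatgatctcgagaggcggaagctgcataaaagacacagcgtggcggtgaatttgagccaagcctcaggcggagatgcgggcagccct
Psmd11: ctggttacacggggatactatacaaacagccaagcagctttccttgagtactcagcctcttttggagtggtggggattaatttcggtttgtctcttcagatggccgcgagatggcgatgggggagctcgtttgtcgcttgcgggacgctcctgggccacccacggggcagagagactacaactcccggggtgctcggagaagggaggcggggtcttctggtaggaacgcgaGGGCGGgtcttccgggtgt
Psma7: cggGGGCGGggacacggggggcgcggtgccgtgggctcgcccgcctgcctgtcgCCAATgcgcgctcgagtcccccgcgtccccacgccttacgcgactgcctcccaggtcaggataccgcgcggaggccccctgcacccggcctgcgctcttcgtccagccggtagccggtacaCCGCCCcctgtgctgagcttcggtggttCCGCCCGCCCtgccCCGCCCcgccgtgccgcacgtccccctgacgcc
Psme2: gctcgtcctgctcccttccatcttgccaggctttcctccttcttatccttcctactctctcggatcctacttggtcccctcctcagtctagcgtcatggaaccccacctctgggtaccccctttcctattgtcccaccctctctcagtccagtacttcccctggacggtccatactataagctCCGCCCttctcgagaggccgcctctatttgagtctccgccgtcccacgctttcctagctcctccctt

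The 4 promoters differed in composition. *Psma7* had the highest GC content, 77.2%, with 35 CpG dinucleotides, 5 matches to GGGCGG and a CCAAT whose first base lay 196 bases before the start. *Psmd1* had the lowest, 49.6% with 12 CpG, and held 1 TATAAA at 122 bases before the start and no GGGCGG. *Psmd11* had 59.2% with 17 CpG and *Psme2* 57.2% with 10 CpG, each with 1 GGGCGG, at 19 and 67 bases before the start. Over the 43 members with a promoter sequence, GC content had a median of 60.0% in the 16 called in at least 1 sample and of 55.2% in the 27 called in none. Over all promoters, the medians were 63.2% in the 3462 with a peak in at least 1 sample and 53.2% in the 14030 with none. The median was thus higher at called than at other promoters, among members as over all genes, and the member groups overlapped widely, with ranges of 36% to 77.2% and 42.8% to 66.8%. TGACNNNGC, bound by the transcription factors NFE2L1 and NFE2L2 that induce proteasome genes, was found in 5 of 43 member promoters (11.6%), namely *Psmb5*, *Psmb6*, *Psmc6*, *Psmd9* and *Psmd12*, and in 10.5% of all 17492 promoters. GGGCGG was found in 51.2% of member promoters and 42.6% of all, CCAAT in 34.9% and 36.4%, TATAAA in 9.30% and 12.4%, CACGTG in 9.30% and 6.65%, and TGACGTCA in 0% and 1.995%. None of these shares was set against peak calls by a test.

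Outside the 2 particles, 1 of 3 assembly chaperones of the regulatory particle was called. This was *Psmd5*, in S7KO replicate 4, with a peak of 883 bp over the start at rank 1697 of 2591, whereas *Psmd9* and *Psmd10* were not called. Of the 5 activator genes, whose products open the gate of the core in place of the regulatory particle, 3 were called. Over all starts, 4238 of 21468 were called in any sample. *Psme2*, of the interferon-induced activator, was called in S7KO replicate 4 and WT replicate 2 by peaks with the same first and last base. The shared coordinates were chromosome 14, 55591229 to 55591481, a width of 253 bp from 380 to 128 bp upstream of the start, and the ranks were 672 of 2591 and 756 of 906. The peak lay 232 bp from the start of *Rnf31* as well. No other peak had the same coordinates in any of the 15 pairs of lists. *Psme3*, of the nuclear activator, was called in S7KO replicates 2 and 3, with a peak over the start in replicate 2 and one that ended 85 bp upstream of it in replicate 3. *Psme4*, of the activator known for histone removal in spermatids, was called in S7KO replicates 2 and 3 by peaks of 591 and 386 bp, 31 and 104 bp downstream of the start, at ranks 1440 of 2840 and 894 of 2045. *Psme3* and *Psme4* were called in no WT sample (Fisher's exact test, two-sided, p = 0.4 each). *Psme1*, *Psme2b* and the inhibitor *Psmf1* were not called.

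*Psmg2*, 1 of 4 assembly chaperones of the core particle, was called in more samples than any other member, in all 3 S7KO samples and in WT replicates 2 and 4 (Fisher's exact test, two-sided, p = 1). Its widths were 286, 594 and 391 bp in S7KO replicates 2, 3 and 4 and 307 and 247 bp in WT replicates 2 and 4. Its rank was 6 of 2840, 796 of 2045 and 772 of 2591 in S7KO and 47 of 906 and 6 of 294 in WT. The peak was thus near the top of its list in 1 S7KO sample and in both WT samples that held it, and in the middle in the other S7KO samples. It was the only member peak of WT replicate 4. All 5 peaks lay upstream of the start or just over it and also reached *Cep76*, a centriole gene that begins 232 bp away on the opposite strand, and 4 of 5 midpoints were nearer to *Cep76*. *Psmg1*, *Psmg3* and *Psmg4* were not called. Of the 2 genes that match by symbol only, *Psmc3ip*, needed for meiotic recombination, was not called, and *Psme3ip1* had a peak near the end of its list in S7KO replicate 2, at rank 2762 of 2840.

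Some members shared the same set of samples. *Psmd7*, *Psme3* and *Psme4* were called in S7KO replicates 2 and 3, and *Psma7* and *Psmd1* in S7KO replicates 2 and 4 and WT replicate 2. *Psma8*, *Psmb3*, *Psmb7*, *Psmc2* and *Psme3ip1* were called in S7KO replicate 2 only, and *Psmc1*, *Psmc5*, *Psmc6*, *Psmd5* and *Psmd6* in S7KO replicate 4 only.

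The 39 member peaks lay close to their gene starts. Of these, 14 covered the start, 15 lay downstream and 10 upstream, and 38 lay wholly or in part within 1 kb. In S7KO, 20 of 32 midpoints were downstream of the start, and in WT 2 of 7. The median midpoint was 121, 251 and 99 bp downstream in S7KO replicates 2, 3 and 4. It was −48 bp in WT replicate 2 and −133 bp in WT replicate 4, that is, upstream, the latter from *Psmg2* alone. Over all promoter peaks of a sample, each taken from the start nearest its midpoint, the median lay between 300.5 and 340.5 bp downstream. Member peaks were taken from the member's own start, and on that unlike measure their median was nearer to the start in every sample that held one. With a peak counted only for its nearest start, the mean of the S7KO medians was 185 bp in place of 157 bp. In WT, the side depended on shared peaks: with a peak counted only for its nearest start, WT replicate 2 alone still held a member peak, and its median was 68.5 bp downstream in place of −48 bp. Median widths were 389, 386 and 391 bp in S7KO and 266 and 247 bp in WT replicates 2 and 4, below the medians of all promoter peaks, 491, 456.5, 468, 376 and 300 bp in the same samples. Median ranks of member peaks were at 39.6%, 38.9% and 50.9% of the S7KO lists and 53.5% of the list of WT replicate 2, near the middle, and the 1 member peak of WT replicate 4 was at 2.04%. No member was called in all 6 samples, so widths were not compared between genotypes at any gene.

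**Figure D3:**
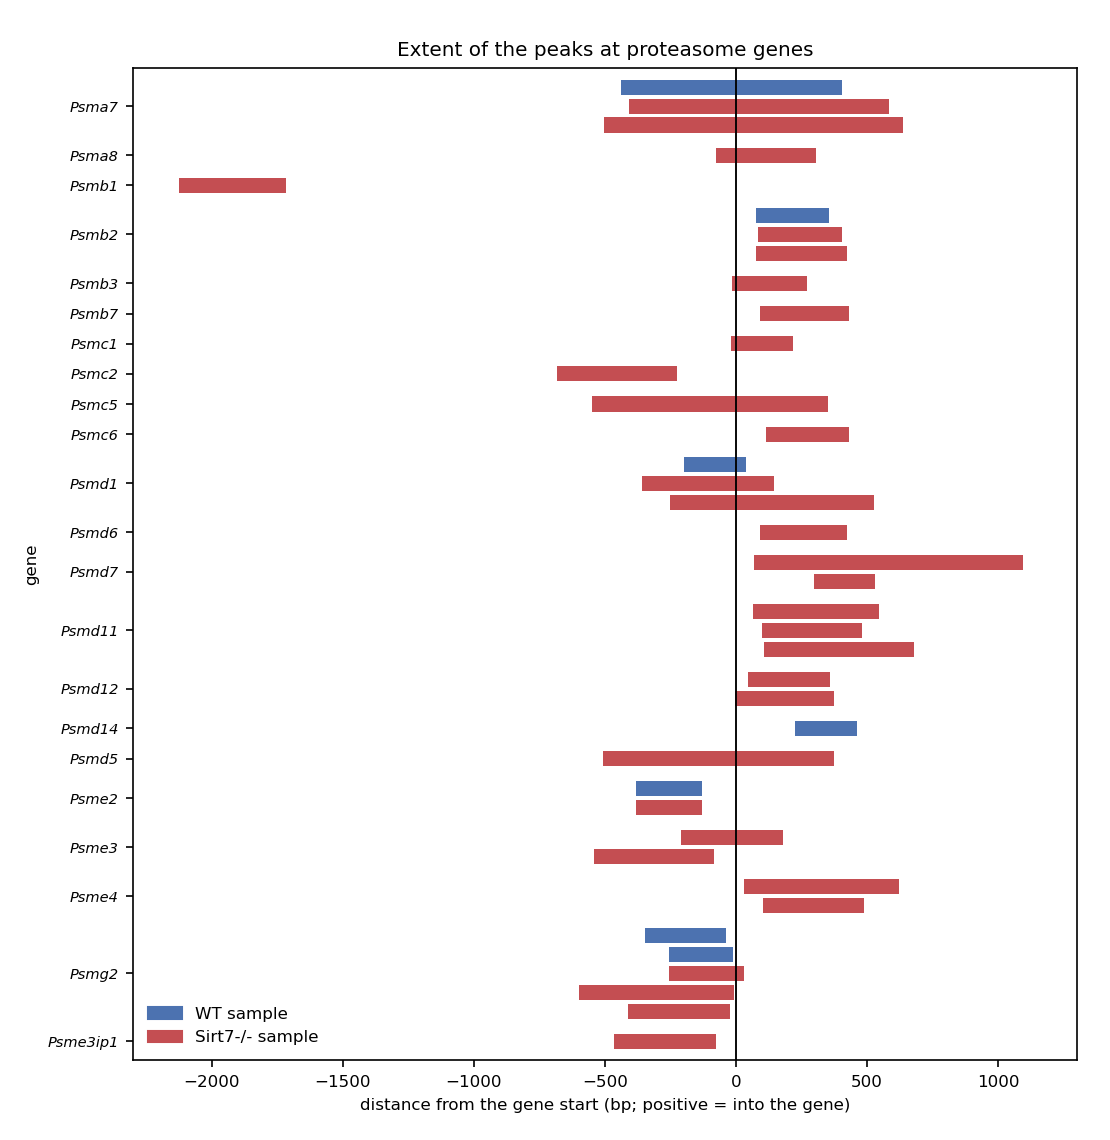
Extent of each of the 39 member peaks relative to the gene start (bp, x axis, downstream positive), with 1 bar per peak, grouped by gene (y axis) and coloured by genotype. The widest bar, of 1145 bp, is at *Psma7*, whose 3 bars span the start, those of *Psmd11* and *Psmb2* begin after it, and that of *Psmb1* is the only one wholly beyond 1 kb.

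Several called members faced another gene. A protein-coding start on the opposite strand within 1 kb was present at 7 of the 22 called members (31.8%), at 4 of the 29 that were not called (13.8%) and at 8.515% of all starts. Of the 39 member peaks, 16 lay within 3 kb of another protein-coding start as well, and 31 had the member as the nearest start to their midpoint. Peaks at *Psma7*, *Psmc2*, *Psmc5*, *Psmg2* and *Psme3ip1* could not be assigned to 1 gene of a pair. The *Psmc2* peak lay 224 bp from its start and 213 bp from that of *Dnajc2*. The *Psme3ip1* peak lay 77 bp from its start and 98 bp from that of *Rspry1*.

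Other genes of the pathway, listed by function, were called as well. Of 23 genes, 9, 12 and 12 were called in S7KO replicates 2, 3 and 4 and 5, 0 and 2 in the WT replicates. The shares of all starts in the same samples were 13.2%, 9.73% and 11.7% in S7KO and 4.38%, 0.317% and 1.35% in WT. At least 1 S7KO sample had a peak at 15 of the 23 (65.2%), against 19.3% of all starts. At least 1 WT sample had a peak at 6, against 5.12%. All 3 S7KO samples had a peak at 8 of the 23, against 5.09% of all starts. These were *Pomp*, the maturation factor of the core, *Txnl1*, a thioredoxin bound to the regulatory particle, *Akirin2*, which carries proteasomes into the nucleus, *Zfand5*, which stimulates degradation, *Nfe2l2*, *Vcp*, the segregase that extracts substrates, and the ubiquitin shuttles *Rad23b* and *Ubqln1*. Of the 8, *Txnl1* was also called in 2 WT samples, *Akirin2*, *Nfe2l2*, *Vcp* and *Rad23b* in 1 each, and *Pomp*, *Zfand5* and *Ubqln1* in none. By comparison, 45 of 83 cytosolic and 28 of 78 mitochondrial ribosomal protein genes were called in at least 1 S7KO sample, which is 54.2% and 35.9%, with the 41.2% of the proteasome members between them. All 3 S7KO samples had a peak at 13 of the 83 cytosolic and 4 of the 78 mitochondrial genes, and at 2 of the 51 members. These lists were not tested against each other.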

How the data were processed

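Broad peaks of H3K36ac were analysed in 3 WT and 3 S7KO samples, as lists deposited per sample. Per the labels and methods, the authors used Trim Galore 0.6.6 for trimming and Bowtie2 2.4.4.1 for alignment to mm10, kept reads of mapping quality 30 or more and called peaks with MACS2 2.2.5 (broad cutoff 0.1) against each sample's own input. Replicates were not pooled. The deposited lists give the authors' fold over input (a ratio), −log10 of p and of q, and a score, which was not used. Fold, p and q served to rank, select or describe peaks within a list. In the alternatives, the stricter q and the common minimum of −log10 p also set the same cutoff for all lists. The study states clean reads per library, counted before duplicates were removed, by which the library of WT replicate 3 was not the shallowest. The number kept by the filters was not analysed here, and no precision is given for a call. Input libraries entered only through peak calling, and no input file was used here.

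Gene positions came from the RefSeq table of GRCm38.p6, with 1 start per gene. Strand came from the RefSeq promoter table for 17492 protein-coding genes and, by symbol, from GENCODE for 3976 (21468 of 21887 in all). Presence at single genes was compared with Fisher's exact test. Counts over members were described without a test. The members and lists were chosen with earlier results of these data known. Genes were named by rule: every member called in WT, every member called in all 3 S7KO and no WT samples, the tissue-specific subunits, *Psme4* and *Psmc3ip* whatever their values, the other members by name and calls, and of the other pathway genes those called in all 3 S7KO samples. Marker and ribosomal lists were given as counts. *Paaf1* was not matched and was left out. Alternatives were a stricter q, a minimum width, a narrower window, lists of equal length, either gene end as start, the nearest start only, subunits only, a replicate block and each replicate left out. Every RefSeq transcript start and a common minimum of −log10 p were added after seeing the data. Calls were tested on simulated data with 2000 isolated starts and 1 peak each, of which 100% were correct. This checked only the code of the window and did not cover peaks shared by neighbouring starts. Scripts ran in Python 3.11.15 with SciPy 1.17.1, NumPy 2.4.6, pandas 2.3.3 and matplotlib 3.10.9.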

Additional observations from a re-analysis of the deposited data

How the results depend on the processing

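The difference in mean members called, S7KO minus WT, was positive under every alternative run. With the 64 best peaks per list, it was 0.667, the S7KO mean was 1.67, 4 members were called in at least 1 S7KO and 2 in at least 1 WT sample, 0 in every S7KO and no WT sample, and the S7KO shares were 1.75% of core and 5.88% of regulatory subunits. With peaks of at least 500 bp, the difference was 3, the S7KO mean 3.33, the corresponding counts 8, 1 and 0, the regulatory share 9.80%, the mean widths 743 bp (S7KO) and 845 bp (WT), and the median midpoints −9.58 bp (S7KO, against 157 bp with all peaks) and −16 bp (WT). With −log10 q of at least 2, 3 members were called in WT. With nearest starts only, the WT midpoint was 68.5 bp, from WT replicate 2 alone. With a common minimum of −log10 p, the S7KO mean was 7. These settings keep fewer peaks by construction, and the cause of the changes was not tested. Leaving out each replicate gave differences of 6.67 to 10.2, 15 to 20 members in S7KO, 1 to 6 in WT, and 1 to 4 in every S7KO and no WT sample. With a replicate block, the mean difference within numbers was 8.33 ± 1.53 (SD, n = 3 pairs). Deviations of samples with the same number correlated at −0.0420, −0.0716 and 0.0109, and those with unlike numbers at −0.0256 to 0.0658. Correlations of calls cannot settle whether the numbers pair samples, and outside the block no pairing was assumed. The planned comparison of widths at a member called in all 6 samples could not be made, since there were 0 such members. Without coverage, a promoter with too little signal for a call and one without the mark could not be separated.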
